A study of Mus with 8 samples.

Results

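RAW264 cells without algal extract were compared between 6 h and 17 h of lipopolysaccharide (LPS). RAW264 is a macrophage-like line from a BALB/c mouse transformed by the Abelson leukemia virus. The comparison took every array of the series whose cells had no pretreatment, 4 of 8 arrays, and covered all 21154 gene symbols measured. These control cells were kept for 24 h without extract and then received 1 ng/mL LPS of E. coli O111:B4 for 6 h (2 arrays) or for 17 h (2 arrays). The other 4 arrays came from cells that had BTEE, an ethanol extract of the microalga Botryococcus terribilis, at 0.2 mg/mL for 24 h before the same LPS and the same times. The labels name no ethanol vehicle for the control cells, so ethanol and extract cannot be told apart in any difference from BTEE cells. All 8 arrays carry LPS. No array of cells before LPS was among them, so a fall from 6 h to 17 h is not known to be a return to the resting level, and a rise is not known to start from it. The 17 h cells had also been longer in culture, and that cannot be told apart from the longer LPS exposure. Whether a group's 2 arrays came from separate cultures is not in the labels, and if they did not, the p-values measure only a spread that may be technical. The number of arrays limits the precision.

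LPS is sensed by Toll-like receptor 4 with its partners MD-2 (Ly96) and CD14. The adaptors TIRAP and MyD88 carry the signal to NF-kB and the MAP kinases within minutes, and TRAM (Ticam2) and TRIF (Ticam1) carry it to IRF3 and type I interferon, whose receptor then drives a second set of genes through STAT and IRF factors. Many early transcripts are short-lived and are shut down by inhibitors that LPS itself induces. Later transcripts include secreted antimicrobial proteins, enzymes of prostaglandin synthesis, and genes of metabolism and stress. Macrophages stimulated with LPS are also known to leave the cell cycle.

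Signals were read on Clariom S mouse arrays and are given in log2, so a difference of 1 is a 2-fold difference. A gene is said to have fallen or risen where limma's p-value was under 0.05 after Benjamini-Hochberg adjustment over all 21154 symbols and the fold was over 1.5 (0.585 on the log2 scale). By this rule 3257 symbols fell (15.4% of those tested) and 2976 rose (14.1%) from 6 h to 17 h. Fold changes over 4 were seen in 393 that fell and 269 that rose, and over 8 in 132 and 71. The median change of all symbols was 0.005. Of the 9793 symbols with a mean signal of at least 6 at either time, 27.5% fell and 22.3% rose, with a median of -0.06, and these shares are the ones to set the groups of expressed genes against. For 75.5% of symbols, the 2 arrays of one time did not overlap those of the other. The 4 arrays had medians of 5.25 to 5.28, and upper quartiles of 9.61 and 9.62 at 6 h and of 9.47 on both arrays at 17 h. Arrays of the same time correlated across probe sets with r of 0.9984 to 0.9987, and those of different times with r of 0.9755 to 0.9756.

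Some sensory receptor genes, which were mostly dim, also passed this rule. Of 1436 olfactory, vomeronasal, taste and trace amine receptor genes, with a median signal of 3.63, 89 fell (6.2%) and 70 rose (4.87%). Their changes had an SD of 0.377, where limma's standard error, from the spread between arrays of the same group, had a root mean square of 0.166. A second test therefore added this excess, an SD of 0.338, as a variance to every standard error of the control time change. It is called the wider-error test. With it 712 symbols fell and 491 rose. Of the receptor genes, 23 had a signal of at least 6. All symbols at that signal had a smaller limma standard error, with a root mean square of 0.098. Whether the spread of the mostly dim receptor genes applies to brighter genes was not tested. Genes that passed only the first test are marked as such where they are named. Among the genes of the lists, the smallest change that passed both tests was 1.53 on the log2 scale and the largest that passed only the first was 1.79.

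The cells carried the transcripts of macrophages at both times. Of 26 measured identity genes, 25 had a signal of at least 6 at one or both times. The surface protein Cd68 read 17.72 and 17.71 at 6 h and 17.80 and 17.75 at 17 h, and the lineage factor Spi1 (PU.1) read 18.16, 18.14, 18.11 and 18.11. Of 58 markers of B cells, T and NK cells, neutrophils, fibroblasts, epithelial, endothelial and mast cells, 4 reached a signal of 6. They were Fcer2a, Cd4, Cd28 and the collagen gene Col1a1. None of the 58 markers fell or rose by the wider-error test. The summed signal of the 10 T and NK cell markers was 8.24 to 8.28 in log2 at 6 h and 8.82 to 8.89 at 17 h. Cd4 read 7.51 and 7.38 and then 8.07 and 7.91, and Cd28 read 5.11 and 5.46 and then 6.66 and 6.63, while the defining T cell genes Cd3e, Cd3d and Cd3g stayed under 5 on all 4 arrays. The sum of the fibroblast markers was 7.93 to 7.99 and then 7.39 to 7.43. The plot of all symbols shows how far single genes lay from equal signal.

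**Figure D1:**
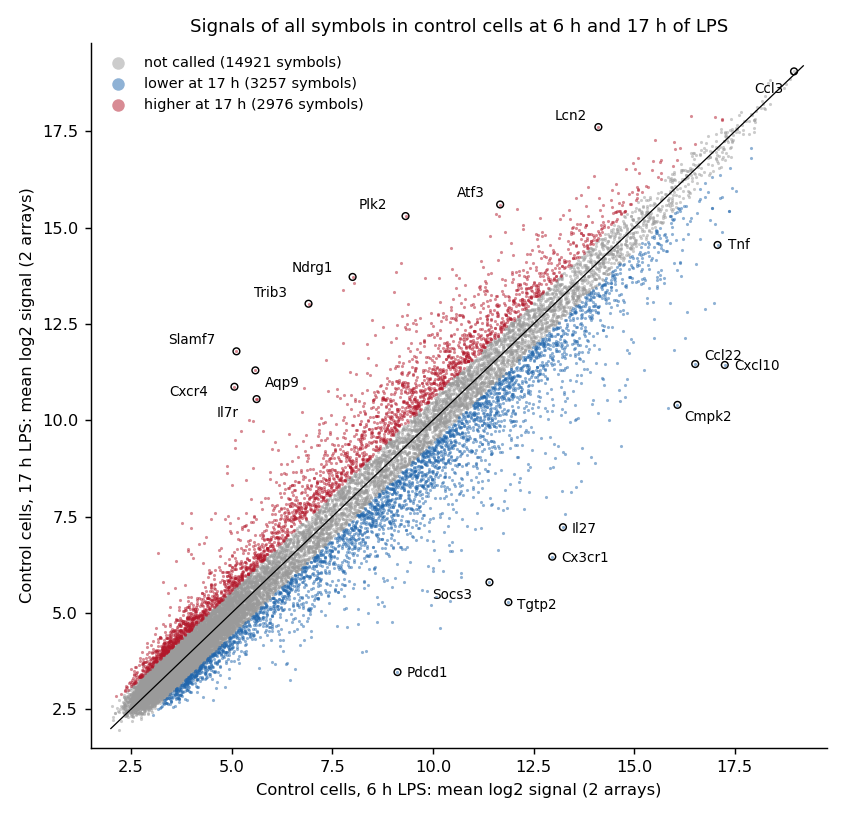
Mean log2 signal of each of the 21154 symbols in control cells at 6 h (x axis) and 17 h of LPS (y axis), each the mean of 2 arrays, with the line of equal signal; blue symbols fell and red symbols rose. Tgtp2, Cx3cr1 and Il27 lie farthest below the line, Slamf7 and Trib3 farthest above it, and Ccl3 sits on the line at the top of the scale.

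The 3 largest falls were of an interferon-inducible GTPase, a chemokine receptor and a cytokine subunit. Tgtp2, an immunity-related GTPase that acts on vacuoles holding parasites or bacteria, read 11.87 and 11.88 at 6 h and 5.48 and 5.08 at 17 h. It fell by 6.60 (SE 0.15, adjusted p = 1.59e-07), a 96.7-fold difference. Cx3cr1, the receptor of fractalkine, read 12.96 and 12.97 and then 6.45 and 6.47, a fall of 90.8-fold. Il27, the p28 subunit of interleukin 27, read 13.21 and 13.25 and then 7.25 and 7.20. In all 3 the arrays of one time lay close together and those of the 2 times far apart. The other subunit of interleukin 27, Ebi3, had a change of 0.57 and did not pass the fold threshold. The next largest falls were those of Cxcl10 (-5.81), Rgs16, which turns off G protein signaling (-5.73), the nucleotide kinase Cmpk2 (-5.68), the PD-1 gene Pdcd1 (-5.66), the cytokine signaling inhibitor Socs3 (-5.61), the vasoconstrictor endothelin gene Edn1 (-5.55) and Ifit1 (-5.54). Rsad2, Igtp, Nfatc1, Themis2, Tlr3, Lfng, Ccl22, Rcan1, Zbtb32 and Mx1 completed the 20, with changes between -5.35 and -4.89. Nfatc1 and Rcan1 belong to calcineurin signaling, as the factor it activates and as its inhibitor. All 20 also passed the wider-error test, which follows from their choice by size, as no called change over 1.79 among the listed and named genes failed it. Pdcd1 (3.41 and 3.52) and Edn1 (4.64 and 4.59) ended within the range of the sensory receptor genes, of whose signals 95% lay under 5.22, and their falls may be larger than the arrays could measure. The same holds for Tgtp2, with 1 of its 17 h arrays (5.08) in that range.

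Most interferon-stimulated genes fell, and the GTPases of the same response fell nearly as a whole. Of 49 measured interferon-stimulated genes, 35 fell, 1 rose and 13 did not pass, with a median change of -1.47, and 24 fell by the wider-error test. Rsad2 (viperin, which blocks virus replication by making a chain-ending nucleotide) read 14.65, 14.71, 9.30 and 9.36 in the 2 arrays of 6 h and the 2 of 17 h. Ifit1, which binds foreign RNA, read 15.85, 15.85, 10.35 and 10.27. Both genes were high on both 6 h arrays and low on both 17 h arrays. The RNA sensor Ifih1 (MDA5), the kinase Eif2ak2 (PKR) and the ubiquitin-like Isg15 fell as well, with changes of -3.5, -3.81 and -2.5. Bst2 (tetherin, which holds budding viruses at the cell surface) rose by 0.63 with an adjusted p of 7.48e-04 and did not pass the wider-error test. Members that did not pass, all with signals above 10, included Ifitm3 (0.00), Slfn4 (-0.02), Oas1a (0.12), Ifi44 (-0.33) and Isg20 (-0.44). Of the 12 measured GBP and IRG GTPases, 11 fell, all of them also by the wider-error test, and the median change was -3.10. Gbp8 rose by 0.64 and did not pass that test. Igtp (Irgm3) read 13.50 and 13.63 and then 8.25 and 8.29, and Gbp2 read 14.77 and 14.76 and then 10.56 and 10.64. Several of these genes are neighbours (positions of GRCm38). Irgm1 and Tgtp2 lie near each other on chromosome 11 and Irgm2 and Igtp farther along it, the 4 with a median change of -4.71. Gbp2, Gbp3 and Gbp7 lie at chr3:142530336-142638008 with a median of -3.93, and Gbp4, Gbp8 and Gbp9 at chr5:105012513-105139586 with -2.18, where Gbp8 is the one that rose. Ifit1, Ifit2, Ifit3 and Ifit3b lie at chr19:34550550-34650009 with -4.03. Members of a cluster share much of their sequence, and the probes of one may also read another.

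The factors that drive these genes did not move as one. Of 20 JAK, STAT and IRF genes, 8 fell (40%), 5 rose (25%) and 7 did not pass. Among symbols with a signal of at least 6, 27.5% fell and 22.3% rose. Irf1, a factor induced by interferon, read 11.15 and 11.26 at 6 h and 7.26 and 7.16 at 17 h, and its change of -3.99 passed both tests, as did those of Batf2 (-4.29), Stat2 (-2.37) and Irf2 (-2.19). Irf9, a DNA-binding partner of STAT proteins, had a change of -0.01. Irf7, which amplifies type I interferon, rose by 0.74 and Irf8, a factor of the monocyte lineage, by 1.14, both by the first test alone, and Irf4 rose by 1.75 from a low signal and passed both. The interferon transcript itself, Ifnb1, read 4.66 and 4.37 and then 4.34 and 3.95, within the range of the sensory receptor genes. The subunits of the immunoproteasome, which interferon also induces, fell as well. Psmb10 read 12.73 and 12.83 and then 10.40 and 10.26, a fall of 2.45, and Psmb9 (-1.55) and Psmb8 (-1.41) fell too, the latter by the first test alone. Of all 35 measured proteasome genes, 8 fell (22.9%, under the 27.5% above), 0 rose by limma at the adjusted threshold and 27 did not pass. Their median was -0.25. The peptide transporter Tap1 fell by 2.41, while the class I genes B2m (0.02) and H2-K1 (0.06) did not pass.

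**Figure D2:**
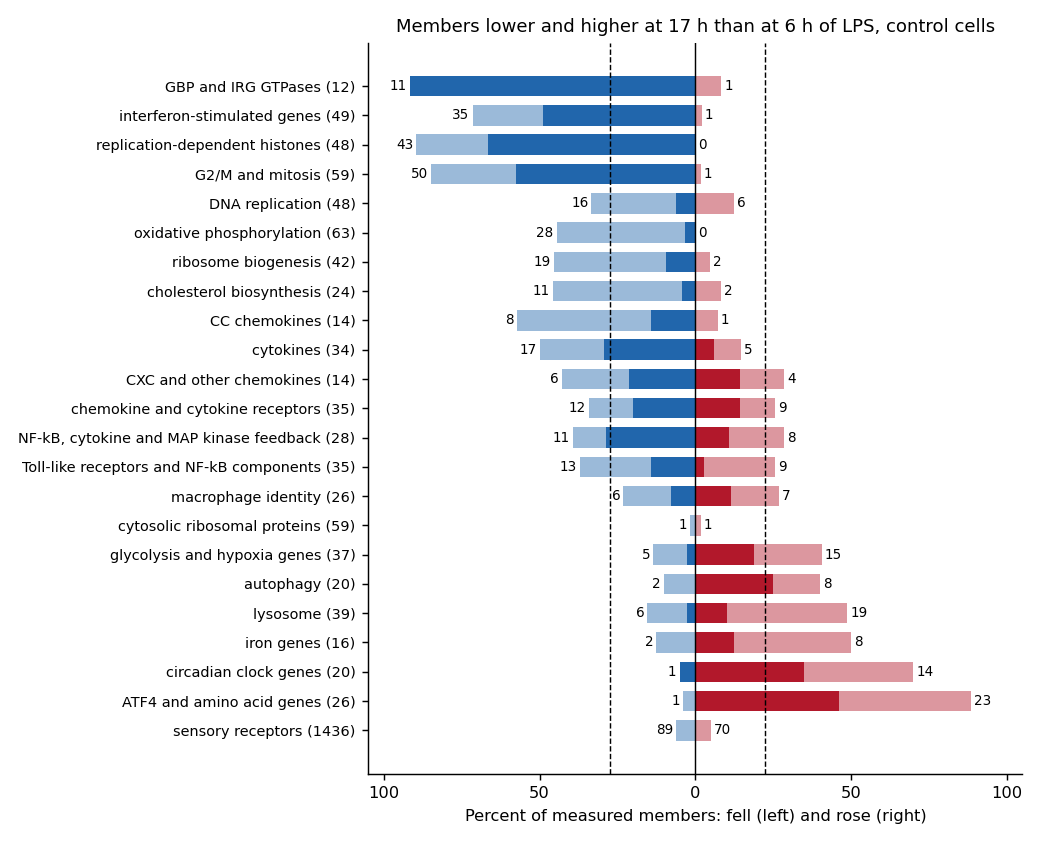
Share of the measured members of each gene list (number in parentheses) that fell (blue, left) or rose (red, right) in control cells, with the number called at the end of each bar; dark parts passed the wider-error test too, and dashed lines mark the 27.5% that fell and 22.3% that rose among symbols with a signal of at least 6. Interferon, histone and mitosis lists extend farthest to the left, and the clock and ATF4 lists farthest to the right. Several other lists pass a dashed line too.

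The chemokines did not move as one. The 3 ligands of CXCR3, which draw T cells, fell. Cxcl10 read 17.31 and 17.19 at 6 h and 11.48 and 11.39 at 17 h, Cxcl11 fell by 4.81, and Cxcl9, low at both times, by 0.88 by the first test alone. Both ligands of CCR4 fell. Ccl22 read 16.54 and 16.49 and then 11.48 and 11.44, and Ccl17 read 12.30 and 12.24 and then 7.70 and 7.71. The monocyte attractants fell less. Ccl2 read 17.47 and 17.38 and then 16.01 and 16.07, a change of -1.38 (SE 0.07, adjusted p = 4.95e-06) that did not pass the wider-error test, and Ccl7 fell by 0.70 and Ccl12 by 0.97, also by the first test alone. Other CC chemokines had smaller changes. Ccl3 read 18.96 and 18.98 and then 19.05 and 19.06, the highest signals on those arrays, where a further rise may not be measurable. Ccl4 read 14.88 and 14.90 and then 14.80 and 14.90, which overlap, and Ccl5 fell by 0.59 by the first test alone. Of the neutrophil attractants, Cxcl1 rose by 0.92 from a low signal by the first test alone. Cxcl2 read 15.43 and 15.58 and then 17.23 and 17.34, and Cxcl3 read 9.11 and 9.33 and then 11.40 on both arrays. Csf3, the growth factor of neutrophils, read 12.47 on both arrays and then 14.42 on both. The last 3 rose by both tests, with no overlap of the times. In all, 8 of 14 CC chemokines fell (57.1%) and 1 rose (Ccl6, by 1.44, by the first test alone). Of 14 CXC and other chemokines 6 fell (42.9%) and 4 rose (28.6%). The shares of symbols with a signal of at least 6 were 27.5% and 22.3%.

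Of 34 measured cytokines, 17 fell (50%), 5 rose (14.7%) and 12 did not pass, with a median of -0.55. Among symbols with a signal of at least 6, 27.5% fell and 22.3% rose. Tnf read 17.11 and 17.03 at 6 h and 14.59 and 14.51 at 17 h, a 5.74-fold fall (log2 change -2.52, SE 0.07, adjusted p = 3.59e-07). The falls passing both tests also included Tnfsf10 (TRAIL, a death ligand, -4.76), the platelet growth factor Pdgfb (-3.49), Il15 (-2.68), Ltb (-2.67), the B cell factor Tnfsf13b (-2.65), Csf1 (-2.41) and Il18 (-2.05). The interleukin 1 genes moved less. Il1b read 16.54 and 16.45 and then 16.04 and 15.94, a change of -0.51 that did not reach the fold threshold. Il1a fell by 0.91 and the receptor antagonist Il1rn rose by 0.85, both by the first test alone. Il6 read 13.50 and 13.52 and then 13.69 and 13.59, a change of 0.13 (SE 0.07, adjusted p = 0.163). Il10, the anti-inflammatory cytokine, was dim and fell from 6.58 and 6.77 to 5.24 and 5.41, by the first test alone. Il12b stayed under a signal of 6 on all 4 arrays. Of the 10 mediators that the study chose for RT-qPCR, 4 fell (Tnf, Ccl2, Il10 and Socs1), 2 rose (Ptgs2 and Atf3) and 4 did not pass (Il1b, Il6, Nos2 and Ppargc1b, a coactivator of mitochondrial genes, with -0.31). For 2 of them the paper states an RT-qPCR level that differs from the arrays. It reports that Il6 was not expressed at 6 h, where the arrays read 13.50 and 13.52, and that iNos (Nos2) was very low at 17 h. Its RT-qPCR values are relative to Gapdh, and its text sets BTEE against control cells at each time. The other mediators were therefore not compared with it over time. Vegfa, the endothelial growth factor, rose from 9.35 and 9.37 to 12.50 and 12.51, an 8.85-fold rise.

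**Figure D3:**
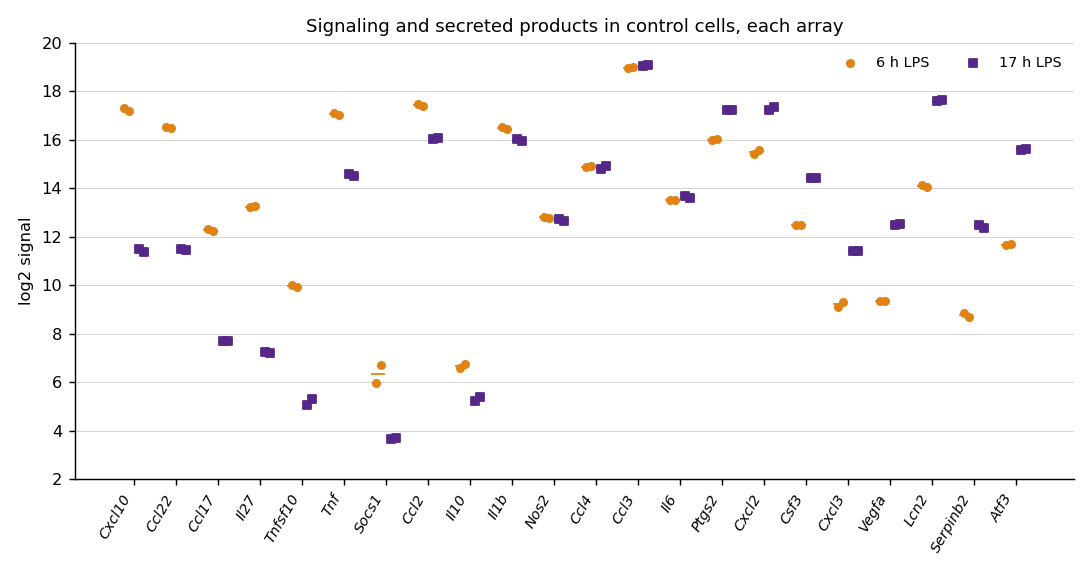
Log2 signal of 22 signaling and secreted products on each control array at 6 h (orange circles) and 17 h of LPS (purple squares), with a line at the mean of the 2 arrays of a time. Cxcl10 to Il10, Tnf among them, lie lower at 17 h, Il1b to Il6 differ little, and Ptgs2 to Atf3 lie higher.

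Late secreted products and enzymes of lipid mediators went in both directions, with large rises of Lcn2 and Serpinb2. Lcn2, which keeps iron from bacteria, read 14.15 and 14.07 at 6 h and 17.59 and 17.63 at 17 h, an 11.3-fold rise (SE 0.07 on the log2 scale, adjusted p = 1.05e-07). Serpinb2, an inhibitor of plasminogen activators, rose from 8.84 and 8.68 to 12.50 and 12.36, whereas the activator gene Plau fell by 2.59 and its receptor gene Plaur by 2.18. Acute phase genes Saa3 (0.70) and C3 (1.29) rose by the first test alone. The inducible cyclooxygenase Ptgs2 read 15.98 and 16.01 and then 17.22 and 17.24, a rise of 1.23 that did not pass the wider-error test. Ptges, which makes prostaglandin E2 from its product, rose by 2.21 and the prostacyclin receptor gene Ptgir by 3.23, and the leukotriene enzyme gene Alox5 fell by 3.23. Nos2, which makes nitric oxide from arginine, read 12.81 and 12.78 and then 12.72 and 12.66, a change of -0.10 (adjusted p = 0.341). Arg2, which competes for arginine, rose from 6.83 and 6.66 to 10.11 and 10.30. Arg1 stayed under a signal of 5. Irg1 (Acod1), which makes itaconate, fell by 0.85 by the first test alone. Nlrp3, the sensor of an inflammasome, fell by 3.07, and Casp1 had -0.27. The matrix protease gene Mmp9 rose by 2.26.

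The brakes of LPS signaling went in both directions. Of 28 feedback genes, 11 fell (39.3%), 8 rose (28.6%) and 9 did not pass, beside 27.5% and 22.3% of symbols with a signal of at least 6. Of the inhibitors of cytokine receptors, Socs2 had 0.15 and the others fell. Socs3 read 11.32 and 11.49 and then 5.74 and 5.85, Socs1 read 5.98 and 6.70 and then 3.65 and 3.69, and Cish fell by 2.10. The 2 arrays of Socs1 at 6 h lay apart, and those of 17 h lay within the range of sensory receptor genes. Of the phosphatases of MAP kinases, Dusp6 fell by 4.67 and Dusp2 by 2.73, whereas Dusp1 rose from 12.24 and 12.25 to 15.04 and 15.11 and Dusp4 by 3.48. Of the inhibitors of NF-kB, Nfkbid fell by 4.72 and Nfkbie by 2.96, Nfkbia fell by 0.64 by the first test alone, and the ubiquitin editor Tnfaip3 (A20) rose by 1.72 and passed both. Irak3, a blocking member of the IRAK family, rose by 0.77 by the first test alone. The mRNA decay factor Zfp36 had a change of 0.10.

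The adaptors of the 2 branches of TLR4 signaling moved apart. Tirap read 11.24 and 11.25 and then 7.86 and 7.74, a change of -3.45, and Myd88 fell too (-2.56). Ticam2 rose from 7.80 and 8.10 to 11.28 and 11.21, and Ticam1 rose by 1.01 by the first test alone. The receptor gene Tlr4 (0.29) and Cd14 (-0.15) did not reach the fold threshold, and Ly96 rose by 1.29 by the first test alone. Tlr3, the receptor of double-stranded RNA, fell from a mean of 14.02 to 8.88, Tlr8 fell as well (-3.19), and Tlr7 had 0.11. Of all 35 Toll-like receptor and NF-kB genes, 13 fell (37.1%), 9 rose (25.7%) and 13 did not pass, beside 27.5% and 22.3% of symbols with a signal of at least 6. Immediate early factors fell and rose as well, with 9 and 5 of 22. Egr1 fell by 4.06, Fos by 3.91, Ier2 by 3.16 and Fosl1 by 2.72. Jun rose from 7.21 and 7.58 to 10.81 and 10.71, and Atf3, a repressor of inflammatory genes, rose from 11.66 and 11.68 to 15.59 and 15.61, a 15.2-fold rise (SE 0.07 on the log2 scale, adjusted p = 9.04e-08). The arrays of the 2 times did not overlap for either.

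Surface molecules changed in both directions. Of 35 chemokine and cytokine receptors, 12 fell (34.3%), 9 rose (25.7%) and 14 did not pass. Among symbols with a signal of at least 6, 27.5% fell and 22.3% rose. Next to Cx3cr1, the interleukin 6 receptor gene Il6ra fell by 3.63 and Il10ra by 3.49. Cxcr4, the receptor of CXCL12, read 4.76 and 5.38 and then 10.85 and 10.89, and Il7r read 5.65 and 5.59 and then 10.65 and 10.45. Both started at or near the range of sensory receptor genes and stood clearly above it at 17 h. The adhesion molecule Icam1 read 13.24 and 13.30 and then 9.19 and 9.06, the proteoglycan Sdc4 fell by 4.17 and the fibronectin receptor subunit Itga5 by 4.06, and Itgam (CD11b) rose by 1.65. The costimulator Cd40 fell by 3.10 and Cd80 by 1.55, the latter by the first test alone, and the PD-1 ligand gene Cd274 rose from 12.62 and 12.59 to 14.81 and 14.82. Among the scavenger and phagocytic receptors Trem2 fell by 3.34, Olr1 by 3.31 and Trem1 by 2.68, and Clec4n (Dectin-2, which binds fungal mannan) rose by 3.35. Of the 26 identity genes 6 fell (23.1%) and 7 rose (26.9%), near the shares of symbols with a signal of at least 6. Fcgr4 (-2.63) and Maf (-1.67) were lower, and Fcgr3 (1.78), Adgre1 (1.65) and Itgam higher, all 5 by both tests. The M-CSF receptor gene Csf1r had -0.34. Of the TAM receptors, which clear dying cells and restrain inflammation, Axl fell by 0.82 by the first test alone, and Mertk and Tyro3 stayed under a signal of 5.

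The largest rises were of a leukocyte receptor, a stress pseudokinase and a polo-like kinase. Slamf7, a self-binding receptor of leukocytes, read 4.96 and 5.28 at 6 h and 11.73 and 11.85 at 17 h, a 101.8-fold rise (log2 change 6.67, SE 0.12, adjusted p = 9.04e-08). Trib3, a pseudokinase of the stress response, rose from 6.97 and 6.85 to 12.97 and 13.08, and the kinase Plk2 from 9.30 and 9.34 to 15.36 and 15.24. Ndrg1, a gene of hypoxia and growth arrest, rose from 8.01 and 8.0 to 13.73 and 13.71. The glycerol and water channel Aqp9 (5.70), Klhl24 (5.61), Lhfpl2 (5.53), Crebrf (4.94), the chaperone Hspa4l (4.88), the clock repressor Bhlhe41 (4.76), Ypel3 (4.58), Cox6a2 (4.49), Aph1c (4.44), the iron exporter Slc40a1 (4.42), the docking protein Gab2 (4.28), the podoplanin gene Pdpn (4.25), Aldh1l2 (4.21) and Kctd6 (4.18) also belong to the 20, with Cxcr4 and Il7r. All 20 passed the wider-error test, which again follows from their choice by size. For 4 of them, Slamf7, Cxcr4, Slc40a1 and Kctd6, the 6 h signal lay under the 95th percentile of the sensory receptor genes, and those rises may be larger than the arrays could measure.

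Genes of the ATF4 program rose nearly as a whole. ATF4 is the factor that is translated when amino acids run short or proteins misfold, and its targets import and make amino acids. Of 26 measured members, 23 rose, 1 fell and 2 did not pass, with a median of 1.5 (all symbols 0.005), and 12 rose by the wider-error test. Atf4 read 14.77 and 14.80 and then 16.54 and 16.51. Ddit3 (CHOP) rose from 10.57 and 10.58 to 13.77 on both arrays, Ppp1r15a (GADD34) from 4.86 and 4.89 to 8.60 and 8.65, and Chac1, which degrades glutathione, by 2.45. Asparagine synthetase Asns (1.01), the cystine transporter Slc7a11 (1.5) and its partner Slc3a2 (1.49) rose by the first test alone. The glutamine transporter gene Slc1a5 fell by 0.60 by the first test alone, and Phgdh, the first enzyme of serine synthesis, had 0.04. Of 18 cytosolic tRNA synthetases, 8 rose (44.4%) and 1 fell (5.6%), led by Sars (2.16) and Cars (1.63). Of 29 genes of protein folding and stress in the endoplasmic reticulum, 11 rose (37.9%) and 2 fell (6.9%). Among symbols with a signal of at least 6, 22.3% rose and 27.5% fell. Ern1, which encodes the stress sensor IRE1, rose from 8.53 and 8.45 to 12.62 and 12.56, while the chaperone Hspa5 (BiP) had 0.35 and Xbp1 -0.36, neither past the fold threshold. In the cytosol Hspa1a (HSP70) rose by 3.35, and 16 of the 23 chaperone genes did not pass.

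Clock genes rose, repressors among them. Of 20 measured, 14 rose, 1 fell and 5 did not pass, with a median of 1.03, and 7 rose by the wider-error test. Bhlhe40 read 10.40 and 10.50 and then 14.46 and 14.47, and Bhlhe41 read 8.93 and 9.25 and then 13.92 and 13.79. Nr1d2 (REV-ERB beta) rose by 3.0, Ciart by 2.38, Nfil3 by 2.18 and Dbp by 1.68, and the activator Rora rose by 3.38 from a signal of 3.13 and 3.23. Noct, a phosphatase of NADPH that cycles with the clock, fell by 2.69. The core activator Arntl (BMAL1) had 0.19, and Clock rose by 1.05 by the first test alone. The times differ in the hour of harvest after LPS, and the clock phase of the cultures was not measured.

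Lysosome, autophagy and iron genes also tended upward. Of 39 lysosome genes, 19 rose (48.7%), 6 fell (15.4%) and 14 did not pass, with a median of 0.54, and 4 rose by the wider-error test. Among symbols with a signal of at least 6, 22.3% rose and 27.5% fell. Gla, the alpha-galactosidase of lysosomes, read 11.65 on both arrays and then 15.33 and 15.27. The cholesterol exporter Npc1 rose by 2.34, the proton pump subunit Atp6v1a by 2.17 and the channel gene Mcoln1 by 1.53. Tfeb, the factor that drives lysosome genes, was dim and rose by 1.07 by the first test alone, and its relative Tfe3 fell by 1.28 by the same test. The protease gene Ctsh fell by 2.25. Of 20 autophagy genes, 8 rose (40%) and 2 fell (10%), among them the cargo receptors Nbr1 (3.01) and Sqstm1 (2.33) and Atg12 (2.13). Of 16 iron genes, 8 rose (50%) and 2 fell (12.5%). Slc40a1 (ferroportin, the exporter) rose from 4.95 and 5.20 to 9.50 and 9.49, and the heme oxygenase gene Hmox1 by 1.25 by the first test alone. Of 37 glycolysis and hypoxia genes, 15 rose (40.5%) and 5 fell (13.5%), with a median of 0.49. Eno2 (3.59), Bnip3l (2.50), Hk3 (2.34) and Pfkfb3 (1.91) rose by both tests, Hif1a by 1.47 by the first alone, and the lactate exporter Slc16a3 fell by 1.86. The abundant enzymes Ldha (0.06), Pkm (0.00) and Gapdh (0.12) did not pass. The fatty acid carrier Fabp5 rose by 3.04 and the fatty acid synthase gene Fasn fell (-2.56). Of 24 genes of cholesterol synthesis, 11 fell (45.8%) and 2 rose (8.3%), of which 1 passed the wider-error test.

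Most genes of mitosis and most histones of S phase fell. Of 59 measured genes of the G2 and M phases, 50 fell, 1 rose and 8 did not pass, with a median of -1.65, and 34 fell by the wider-error test. Plk1, a kinase that starts mitosis, read 12.95 and 13.01 at 6 h and 8.85 and 8.70 at 17 h, an 18.4-fold fall (SE 0.08 on the log2 scale, adjusted p = 9.91e-08). Cdc20, which activates the anaphase complex, read 10.26 and 10.24 and then 6.18 and 5.99, and the cyclin-dependent kinase Cdk1 read 11.73 and 11.78 and then 7.91 and 7.88. Cenpa, the histone of centromeres, fell (-4.15), as did the cyclin gene Ccnb1 (-2.57). The proliferation marker Mki67 fell by 0.95, by the first test alone. Plk4, the kinase of centriole duplication, was the member that rose, by 0.73 and by the first test alone. Of 48 replication-dependent histone genes, 43 fell, 0 rose by limma at the adjusted threshold and 5 did not pass, with a median of -1.85, and 32 fell by the wider-error test. All classes were involved. Of the H2A genes 10 of 11 fell (median -2.04), of H2B 12 of 13 (-1.42), of H3 9 of 10 (-1.60), of H4 9 of 10 (-1.81) and of the H1 linkers 3 of 4 (-1.86). The cluster on chromosome 13 held 40 of the 48, of which 36 fell, and that on chromosome 3 held 8, of which 7 fell. Hist1h4d read 14.80 and 14.86 and then 11.76 and 11.87. Many of these genes are near-identical copies whose probes cannot tell them apart, so that their count is not a count of independent genes, and 2 of them, Hist2h3c1 and Hist2h3c2, had the same values on all 4 arrays.

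Of 48 replication genes, 16 fell, 6 rose and 26 did not pass, with a median of -0.21. The 33.3% that fell compare with 27.5% of all symbols with a signal of at least 6. By the wider-error test 3 fell. These were the flap nuclease Fen1 (-2.27), Mcm10 (-2.24) and the licensing factor Cdc6 (-1.65), whereas Pola1 (1.30), Cdt1 (0.90) and Mcm2 (0.85) rose by the first test alone. The sliding clamp gene Pcna had -0.47. The inhibitor of cyclin-dependent kinases Cdkn1a (p21) read 16.19 and 16.21 and then 14.73 and 14.68, a change of -1.5 by the first test alone, and Cdkn2d fell by both (-2.29). Gadd45a, a growth arrest gene, rose from 8.41 and 8.30 to 11.87 and 12.11, and the arrest-associated cyclin gene Ccng2 from 9.15 and 9.06 to 12.52 and 12.41. Of the 26 inhibitors, D cyclins and p53 targets, 6 fell (23.1%) and 7 rose (26.9%), near the 27.5% and 22.3% of symbols with a signal of at least 6. Trp53 had 0.10.

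**Figure D4:**
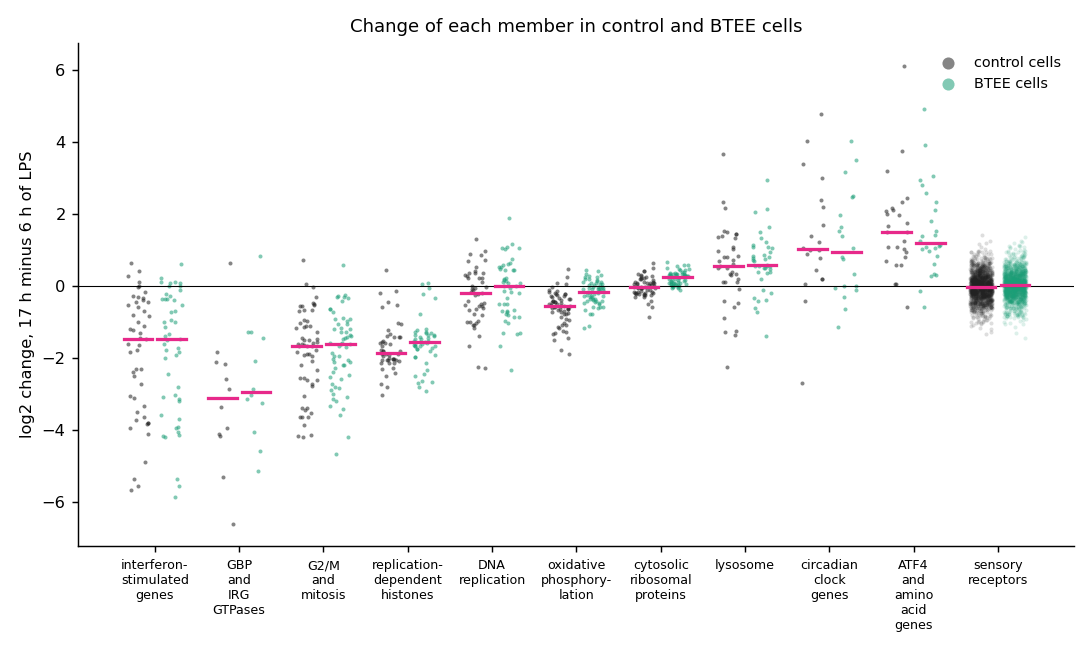
Log2 change from 6 h to 17 h of LPS of each measured member of 11 gene lists in control cells (black) and in BTEE cells (green), with pink lines at the medians. In control cells the medians run from -3.10 for GBP and IRG GTPases to 1.5 for ATF4 and amino acid genes. The sensory receptor genes show the spread of mostly dim genes.

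Of the genes of growth and respiration, ribosomal protein genes mostly did not pass, and the biogenesis and respiration genes that passed mostly fell. Of 59 cytosolic ribosomal protein genes, 1 fell, 1 rose and 57 did not pass, with a median of -0.04. Of 42 ribosome biogenesis genes, 19 fell (45.2%) and 2 rose (4.8%), with a median of -0.53. Among symbols with a signal of at least 6, 27.5% fell and 22.3% rose. Grwd1 (-2.44), Noc4l (-1.75) and Polr1b (-1.63) led the falls of biogenesis genes. Myc, which drives these genes, fell by 0.60 by the first test alone. Of 63 subunits of oxidative phosphorylation, 28 fell (44.4%) and 0 rose by limma at the adjusted threshold, with a median of -0.56. Only Ndufs7 (-1.88) and Ndufb2 (-1.77), both of complex I, fell by the wider-error test. Ndufs7 read 14.19 and 14.27 and then 12.33 and 12.37. Of 25 genes of the tricarboxylic acid cycle, 3 fell (12%) and 1 rose (4%). Among the common reference genes Actb (0.04) and Gapdh (18.17 and 18.18, then 18.32 and 18.27) did not pass, and Tbp fell by 1.25 and Gusb by 0.59, both by the first test alone.

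The BTEE cells give a second time course whose means come from the other 4 arrays, although all 8 arrays share the error estimate of the limma fit. In them 2714 symbols fell (12.8%) and 2563 rose (12.1%). Of the symbols that fell in control cells, 1828 fell there too, 56.1% of the control list and 67.4% of the BTEE list, and 1529 rose in both, 51.4% and 59.7%. Opposite calls were made for 41 symbols that fell in control cells and rose in BTEE cells and for 43 that did the reverse. Of the 6233 control calls, 84.9% had the same sign in BTEE cells, and 2260 also differed from BTEE cells by the first test of that difference. The slope of the BTEE change on the control change over these 6233 symbols, chosen by their change in control cells, was 0.745. Across the 9793 symbols with a signal of at least 6 in control cells, the time changes of the 2 kinds of cells had r = 0.877, as a description across genes that share the arrays' design and processing. Across the 1436 sensory receptor genes r was 0.028. The 20 largest falls of control cells were all called in BTEE cells (sizes of 3.61 to 6.67), and so were the 20 largest rises. Some changes were nearly equal. For Rsad2 they were -5.35 in both, for Plk1 -4.21 in both, for Atf3 3.93 and 3.94, and for Tnf -2.52 and -2.61. Medians were also close for the interferon-stimulated genes (-1.47 and -1.48), mitosis (-1.65 and -1.63) and lysosome (0.54 and 0.57).

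**Figure D5:**
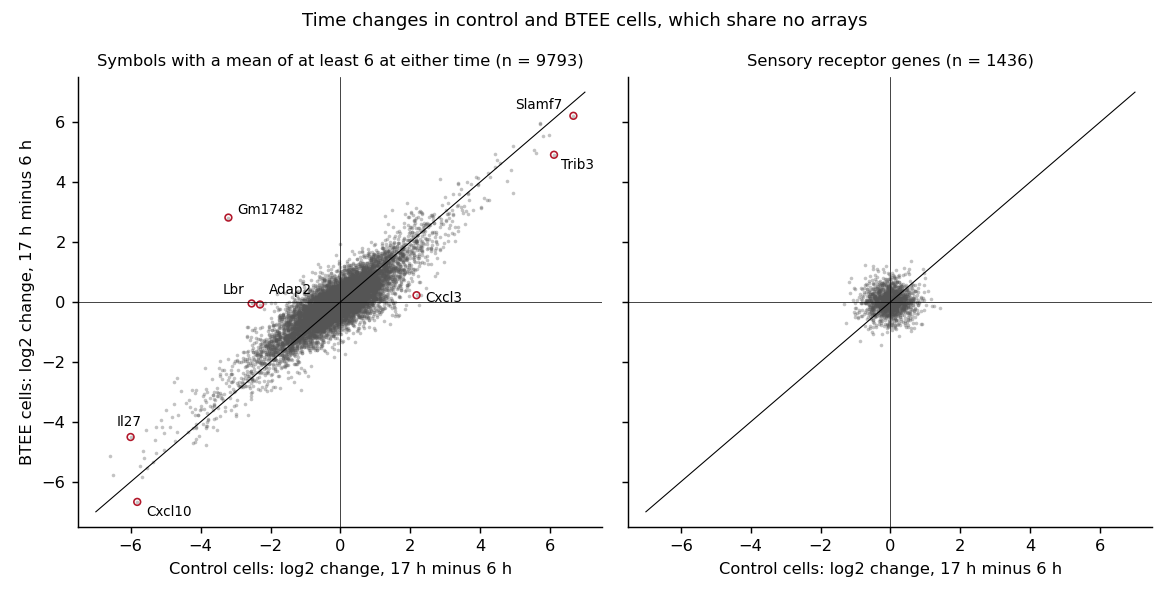
Log2 change from 6 h to 17 h of LPS in control cells (x axis) and in BTEE cells (y axis), for the 9793 symbols with a mean signal of at least 6 in control cells at either time (left) and for the 1436 sensory receptor genes (right), with the line of equal change. The changes on the left correlate with r = 0.877, and those on the right form a round cloud with r = 0.028.

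The difference between the 2 time changes passed the first test for 2213 symbols with a lower change in control cells (10.5%) and 2050 with a higher one (9.69%), 20.2% of those tested. Of the sensory receptor genes 15.7% (225) passed it as well. A wider error was also set for this difference, from the spread of the sensory receptor genes' own differences. With it 0 symbols passed, and the lowest adjusted p was 0.575. That wider-error test's unadjusted p was under 0.05, with a fold over 1.5, for 275 lower and 289 higher changes. The predicted gene Gm17482 differed most, with -3.21 in control and 2.81 in BTEE cells. The lamin B receptor gene Lbr read 13.55 and 13.57 at 6 h and 10.99 and 11.05 at 17 h in control cells, and 11.67, 11.77, 11.64 and 11.70 in BTEE cells, so that it fell in control cells alone. Adap2, a regulator of Arf proteins, read 9.28, 9.42, 7.04 and 7.06 in control cells and 7.25, 7.08, 6.98 and 7.18 in BTEE cells. Tmem141 had -2.15 and -0.05, and Ifit1bl1 -4.68 and -2.52. On the other side Gm17428, Gm11111, Gm21760, 6430503K07Rik and the autophagy gene Atg16l2 had higher changes in control cells, the last with 2.32 and 0.25. Among the lists, 7 of 14 CXC and other chemokines (50%), 6 of 12 GBP and IRG GTPases (50%) and 7 of 15 nitric oxide and arginine genes (46.7%) differed by the first test. Oxidative phosphorylation had 28 members that fell in control cells and 6 in BTEE cells, with medians of -0.56 and -0.16, and 20 of its 63 members (31.7%) differed, set against 20.2% of all symbols. Psmb9 fell by 1.55 in control cells and had -0.11 in BTEE cells. Cxcl3 had 2.18 and 0.22.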

How the data were processed

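RNA was extracted with ISOGEN and labelled with the GeneChip WT PLUS kit for Clariom S mouse arrays, 8 arrays in 4 groups of 2. The authors deposited log2 signals per probe set, computed by SST-RMA with GC correction in the Transcriptome Analysis Console, version 4.0.1 in the series text. This method makes the distributions of signals similar between arrays, though not equal here, so a shift shared by most genes is not reliably seen. The authors also deposited tables of their own comparisons with group averages, fold changes, p-values and false discovery rates. Of these only the averages were used, to check that probe sets matched (largest difference 0.005).

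Of 22206 probe sets, 21367 named 1 gene, 836 several and 3 none. The probe set with the highest mean was kept for each symbol, which left out 213 and gave 21154 symbols, of which 19689 were current RefSeq names, 858 older names and 607 unmatched. All 8 arrays were fitted with 1 mean per group in limma 3.58.1 (R 4.3.3), with 4 residual and 3.12 prior degrees of freedom, and p-values were adjusted by Benjamini-Hochberg over all symbols. With 2 arrays against 2, an exact permutation test cannot go below p = 0.333 and none was run. On simulated data of 21154 symbols, 170 of 200 changed symbols were recovered, with 2 false calls among the unchanged ones. The simulated noise was independent between symbols and took its size from the spread within groups alone. The sensory receptor genes varied more than that, so the 2 false calls give no rate for the real data.

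Named genes were the 20 largest falls and rises with no overlap and a signal of at least 6, the mediators the study assayed, up to 6 called members per list with others the description needed, and the 5 largest differences from BTEE cells in each direction. The 51 gene lists and these rules were chosen with earlier results of these data known. Alternatives covered scaling, low signals, the arrays fitted, the prior, probe sets, thresholds, the error and each array left out. Sequences and promoter motifs were not analysed here. A few genes are not reported here.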

Additional observations from a re-analysis of the deposited data

Results flagged for a closer look

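Of 268 symbols reported, 41 had a time change that differed between control and BTEE cells by over 2-fold with an adjusted p of 0.000852 to 0.0346 in limma's interaction test. Those with the largest differences in each direction were named for that size, so their place among the 41 follows from the choice. The count is therefore not a rate for all symbols, whose share over 2-fold is not given here. With a fold over 1.5, 20.2% of all 21154 symbols passed the interaction test. Values are the change in control cells minus that in BTEE cells, in log2. With the wider error set for the difference between control and BTEE cells, the lowest adjusted p over all symbols was 0.575. None of these differences passed that test.

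Differences were below 0 for 29 symbols. Among interferon-related and signaling genes they were -1.46 for Tgtp2, -1.5 for Il27, -2.15 for Ifit1bl1, -1.12 for Gbp2, -1.31 for Gbp4, -1.21 for Tlr3, -1.36 for Tnfsf10, -1.02 for Il15, -1.58 for Psmb10, -1.45 for Psmb9, -1.05 for Tirap and -1.17 for Nfkbie. Each of these 12 symbols fell in control cells and had a smaller change in BTEE cells. For the other called genes they were -1.61 for Ccl17, -1.28 for Edn1, -1.10 for Nfatc1, -1.37 for Zbtb32, -1.06 for Trem2, -1.33 for Alox5, -1.36 for Maf, -1.53 for Noct, -1.04 for Hist1h4d, -1.84 for Ndufs7, -1.30 for Ndufb2, -2.22 for Adap2, -2.49 for Lbr, -2.11 for Tmem141 and -6.02 for Gm17482. The last read 6.64, 6.28, 2.94 and 3.57 in control cells and 5.53, 5.33, 8.66 and 7.83 in BTEE cells, in opposite directions. Arg1 (-1.15) and Col1a1 (-1.46) were dim.

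Differences were above 0 for 12 symbols. They were 1.96 for Cxcl3, 1.03 for Cxcl1, 1.04 for Irf8, 1.31 for Il7r, 1.21 for Trib3, 1.02 for Npc1, 2.07 for Atg16l2, 2.35 for Gm17428, 2.17 for Gm11111, 2.11 for Gm21760 and 2.10 for 6430503K07Rik. Cd3g, at 1.04, stayed in the range of the sensory receptor genes.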

How the results depend on the processing

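In control cells the call rule moved the counts most. By adjusted p alone 5589 symbols fell and 5465 rose, with a fold over 2 it was 1621 and 1276, with limma's treat test against a fold of 1.5 it was 1889 and 1539, and under the wider error 712 and 491. Within 0.1 of the fold threshold lay 1094 called symbols, and 1375 that missed it. Leaving out 1 array gave 3209 to 3342 that fell and 2957 to 3022 that rose, the lone array of a time being assumed to vary like the other groups. Quantile normalization gave 3036 and 3178, so that the share of calls that were falls went from 52.3% to 48.9%, and centring gave 3434 and 2779 (55.3%). For the difference between control and BTEE cells, a signal of at least 6 left 1360 lower and 1054 higher, the sensory spread 0 and 0, and leaving out 1 array 1904 to 2119 and 1729 to 1895. Replicate numbers share only a number, with correlations of deviations of 0.003 to 0.02, and with the number as a replicate block the counts were 3251 and 2972, and 2169 and 2016 for the difference. Of 2583 values of 287 named genes under 9 other settings, 2561 kept direction and side of the threshold, 22 from 8 symbols fell short of it and 0 reversed, and with the wider error 88 genes no longer passed. List medians moved by at most 0.2. Signals in the range of the sensory receptor genes limit the size of changes of dim genes.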
